A study of Mus musculus with 16 samples.

Results

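The genes examined here encode the subunits of the AMPA and NMDA receptors, the ion channels that carry most fast excitatory transmission in the brain. The members were chosen by name and comprise Gria1, Gria2, Gria3 and Gria4 (AMPA) and Grin1, Grin2a, Grin2b, Grin2c, Grin2d and Grin3a (NMDA), 10 of 55266 annotated genes. They accounted for 62 of the 142435 deposited transcripts, and all 10 genes passed the filter on low counts in both brain regions. RNA had been sequenced from frontal cortex (FC) and cerebellum (Cere) of adult mice null for Upf3b (Upf3b-KO) and of littermates called Ctrl, a design made to find RNAs that depend on Upf3b in vivo. The Upf3b protein acts in NMD (nonsense-mediated RNA decay), by which RNAs with certain stop codon contexts are destroyed. The 4 groups were Ctrl FC, Upf3b-KO FC, Ctrl Cere and Upf3b-KO Cere, each with 4 libraries. Neither sex nor exact age is given in the labels.

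Levels are in CPM, which are RSEM's estimated counts scaled to a common library total. The 15 libraries used held 27660078 to 35238677 counts. Upf3b-KO Cere library 1 held 64981 counts, so that 3 counts there already equal 46.2 CPM, and it was left out of the values and tests. The remaining Upf3b-KO Cere group therefore has n = 3. Upf3b itself lay at 14.2 to 15.7 CPM in Ctrl FC and 0.229 to 0.857 in Upf3b-KO FC, and at 20.9 to 23.6 in Ctrl Cere and 0.617 to 0.965 in Upf3b-KO Cere. Libraries of a group were very close to each other. The coefficient of variation of a member within a group had a median of 1.87%, against 1.49% that counting alone would give. Over genes with at least 100 counts in a pair of libraries of a group, the pair differed with a variance (median over genes) of 2.19 to 2.68 times that of counting. Tissue came from 4 adult mice of each genotype, but nothing in the labels ties a library to an animal, so the spread between libraries may be technical, and every p-value measures only that spread. Because the libraries are bulk tissue, fewer cells of a type and less RNA per cell cannot be told apart.

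Both receptors are assemblies of 4 subunits. AMPA receptors open briefly on binding glutamate, and the GluA2 subunit made by Gria2 renders them nearly impermeable to calcium. Each Gria gene carries a pair of mutually exclusive exons, flop and flip, that encode part of the ligand-binding domain and set how quickly the channel desensitizes. NMDA receptors need the GluN1 subunit made by Grin1, which binds glycine, together with GluN2 subunits, which bind glutamate, or GluN3 subunits, which bind glycine. Grin1 is spliced at the N1 exon, which lies in the extracellular N-terminal domain, and at the C1 exon and a choice of last-exon segments (C2 or C2′) in the cytoplasmic tail.

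The exon pairs of Gria1 and Gria4, the Gria genes with a usage test that passed, are shown here from GRCm39, because the shares reported later rest on reads that tell flop and flip apart. In all 4 Gria genes the pair has 115 bases per exon, and flop lies upstream of flip in the direction of transcription. The exons of a pair differ at 36 bases in Gria1, 36 in Gria2, 32 in Gria3 and 31 in Gria4, marked by capitals in the printed pairs. Gria1 flop spans chr11:57200595-57200709 and flip chr11:57201434-57201548, both on the plus strand. Gria4 flop spans chr9:4432773-4432887 and flip chr9:4427030-4427144, both on the minus strand.
Gria1 flop: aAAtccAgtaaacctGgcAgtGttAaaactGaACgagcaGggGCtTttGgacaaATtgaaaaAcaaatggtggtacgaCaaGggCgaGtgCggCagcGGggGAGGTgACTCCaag
Gria1 flip: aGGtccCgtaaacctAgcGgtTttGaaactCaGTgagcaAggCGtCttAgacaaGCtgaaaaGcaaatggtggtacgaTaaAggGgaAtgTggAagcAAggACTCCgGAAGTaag
Gria4 flop: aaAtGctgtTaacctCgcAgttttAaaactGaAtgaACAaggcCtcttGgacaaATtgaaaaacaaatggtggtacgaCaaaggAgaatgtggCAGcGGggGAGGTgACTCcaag
Gria4 flip: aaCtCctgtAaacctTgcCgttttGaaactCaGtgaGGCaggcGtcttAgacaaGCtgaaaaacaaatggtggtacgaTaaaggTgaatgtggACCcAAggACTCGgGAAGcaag

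The Grin1 cassette exons lie on the minus strand at chr2:25201355-25201417 (N1, 63 bases) and chr2:25184450-25184560 (C1, 111 bases). Both are coding, and they are printed because the groups of libraries did not overlap in the share of N1 between genotypes or of C1 between regions, although no share passed its test after adjustment.
Grin1 N1: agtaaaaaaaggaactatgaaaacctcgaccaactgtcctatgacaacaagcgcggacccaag
Grin1 C1: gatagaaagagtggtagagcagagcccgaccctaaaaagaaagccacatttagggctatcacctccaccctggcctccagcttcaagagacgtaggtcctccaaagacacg

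The make-up of each family's RNA in the control tissues was examined first. Levels of different genes were compared per length, as TPM, for which counts were divided by annotated transcript length before scaling. Among AMPA subunits, Gria2 held 51.7% ± 0.16 (SD, n = 4) of the family's TPM in Ctrl FC and Gria1 held 29.7% ± 0.27. The order was different in Ctrl Cere, where Gria4 held 43.2% ± 0.32, Gria1 34.0% ± 0.35 and Gria2 16.6% ± 0.19. The truncated transcript Gria4-203 (2430 bases, against 5828 for Gria4-202) held 21.0% of the gene's counts in Ctrl Cere. Its shortness raises the TPM of Gria4. In CPM, Gria1 was above Gria4 in Ctrl Cere, at 940 to 964 against 901 to 915. The lead of Gria4 therefore depends on the length scaling. Within the NMDA family Grin1 took 60.7% ± 1.5 in Ctrl FC and 61.2% ± 0.48 in Ctrl Cere. The GluN2 part of the family differed. Grin2b and Grin2a led in Ctrl FC with 14.3% ± 1.9 and 9.13% ± 0.50, whereas Grin2c led in Ctrl Cere with 29.6% ± 0.79 and Grin2b held 0.861% ± 0.29. Short fragments weigh heavily in the TPM of Grin2b. Grin2b-207, of 241 bases against 24238 for Grin2b-201, ranged from 0.108 to 1.20 CPM across the Ctrl FC libraries. The share and rank of Grin2b by TPM are therefore uncertain.

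**Figure D1:**
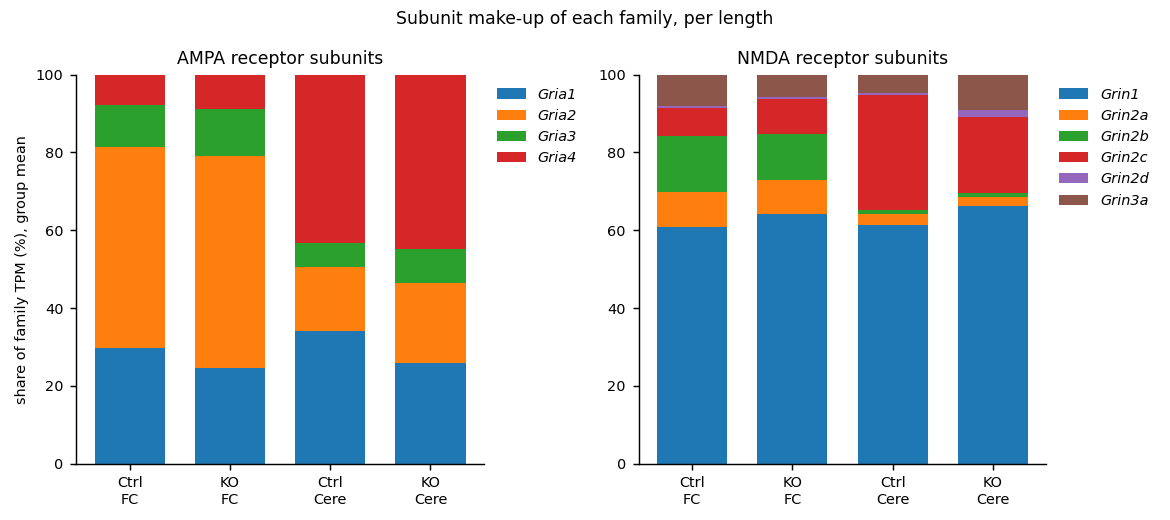
Stacked bars show the mean share (percent, vertical axis) of each subunit in the summed TPM of its family for the 4 groups (horizontal axis; n = 4, and 3 in Upf3b-KO Cere). Gria2 is the largest AMPA segment in both FC groups and Gria4 in both Cere groups, while Grin1 is the largest NMDA segment in all 4.

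In order of TPM, Ctrl FC ran from Gria2 (391 ± 2.3, SD, n = 4) through Gria1 (225 ± 2.4), Grin1 (154 ± 3.7), Gria3 (81.5 ± 2.0), Gria4 (59.8 ± 2.2), Grin2b (36.3 ± 5.3) and Grin2a (23.2 ± 0.93) to Grin3a (20.3 ± 0.34), Grin2c (18.7 ± 1.0) and Grin2d (1.42 ± 0.16). The only neighbours whose libraries overlapped there were Grin3a and Grin2c. In Ctrl Cere the order was Gria4 (510 ± 5.2), Gria1 (401 ± 5.6), Gria2 (196 ± 2.1), Grin1 (165 ± 4.2), Grin2c (79.6 ± 0.70), Gria3 (72.0 ± 3.5), Grin3a (13.1 ± 0.48), Grin2a (8.004 ± 0.45), Grin2b (2.33 ± 0.81) and Grin2d (1.32 ± 0.17), with overlap only between Grin2b and Grin2d. Per length, the order differed in the Upf3b-KO groups. Upf3b-KO FC kept the first 6 places, and Grin2c (22.4 ± 0.87) and Grin2a (21.4 ± 0.32), which overlapped, came before Grin3a (14.4 ± 0.76). In Upf3b-KO Cere, Gria4 (282 ± 2.9) was followed by Grin1 (163 ± 2.9) and Gria1 (163 ± 1.6), which overlapped.

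Ctrl Cere was then compared directly with Ctrl FC. In edgeR's quasi-likelihood fit, 8 of the 10 genes differed at an adjusted p (Benjamini-Hochberg) under 0.05, against 73.1% of the 19831 genes tested. Of these, 3 were higher in Cere (35.8% of all genes were) and 5 were lower (37.3% were). A difference over 2-fold with an adjusted p under 0.01, the rule used for a call, was met by 5 members and by 25.5% of all genes. Gria4 was higher in Cere by 3.35 on the log2 scale (SE 0.02, adjusted p = 1.46e-35) and Grin2c by 2.003 (SE 0.03, adjusted p = 2.0e-26). Grin2b was the most divergent member, with 217, 220, 223 and 227 CPM in Ctrl FC and 9.80 to 11.2 CPM in Ctrl Cere (log2 difference −4.40, SE 0.03, adjusted p = 3.42e-33). Grin2a (log2 difference −1.75) and Gria2 (−1.21) completed the calls. Gria1 (0.74), Gria3 (−0.36) and Grin3a (−0.75) passed the test below 2-fold. Grin1 (−0.04, adjusted p = 0.0984) and Grin2d (−0.27, adjusted p = 0.0766) did not pass. Each region had its own deposited table, and region and table cannot be told apart.

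The effect of the Upf3b knockout on each subunit was the main comparison. In FC, 6 of 10 members passed at an adjusted p under 0.05, where 53.3% of 18218 genes passed. Gria1, Gria2, Grin2a, Grin2b and Grin3a were lower and Grin2c was higher, against 25.3% of all genes lower and 28% higher. None changed over 2-fold, against 10.2% of all genes called. In Cere, 9 of 10 members passed (64.4% of 17785 genes), of which 6 were lower (31.3% of all genes) and 3 higher (33.1%). The 2 calls over 2-fold were a fall of Gria1 and a rise of Grin2d, and 13.2% of all genes were called.

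**Figure D2:**
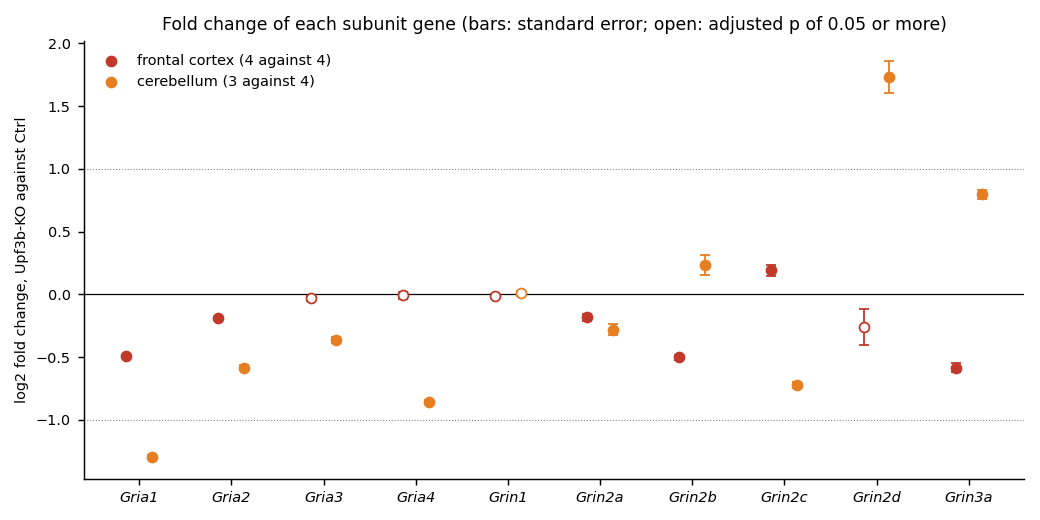
Each point is a log2 fold change (vertical axis) of Upf3b-KO against Ctrl for a subunit gene (horizontal axis), with its standard error as a bar and dotted lines at a 2-fold change. All 4 AMPA genes lie below 0 in cerebellum, where Gria1 is lowest at −1.30 and Grin2d is highest at 1.73.

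Over the 4 AMPA subunit genes the median log2 fold change was −0.11 in FC and −0.72 in Cere, where the medians over all genes tested were 0.0037 and 0.0077. Gria1, whose product GluA1 is known for its part in synaptic plasticity, gave 564, 561, 553 and 560 CPM in Ctrl FC and 417, 422, 417 and 420 CPM in Upf3b-KO FC. In Cere it gave 951, 940, 964 and 946 CPM in Ctrl and 403, 397 and 403 CPM in Upf3b-KO. The groups did not overlap in either region. The log2 fold change was −0.49 (SE 0.01, adjusted p = 9.27e-18) in FC and −1.30 (SE 0.01, adjusted p = 4.31e-22) in Cere.

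Gria2, whose product controls calcium entry, was at 793 to 809 CPM in Ctrl FC and 737 to 745 in Upf3b-KO FC (log2 fold change −0.19, SE 0.01, adjusted p = 1.91e-11). Its cerebellar values were 349, 352, 355 and 354 CPM in Ctrl and 246, 242 and 243 in Upf3b-KO (−0.58, SE 0.02, adjusted p = 6.79e-16). Both differences left a gap between the groups, and the cerebellar one was the larger. Gria4, the leading AMPA subunit gene of Ctrl Cere by TPM but not by CPM, was at 901, 915, 911 and 911 CPM there. In Upf3b-KO Cere it was at 519, 516 and 524 CPM (−0.86, SE 0.01, adjusted p = 6.45e-20). Gria3 was at 146 to 149 CPM in Ctrl Cere and 116 to 124 in Upf3b-KO Cere (−0.36, SE 0.03, adjusted p = 3.72e-10). In FC the groups overlapped for Gria3 (−0.03, adjusted p = 0.186) and Gria4 (−0.0068, adjusted p = 0.865), and neither passed. Summed over the family, AMPA subunits were at 750 to 764 TPM in Ctrl FC and 682 to 690 in Upf3b-KO FC, and at 1172 to 1189 in Ctrl Cere and 624 to 633 in Upf3b-KO Cere.

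**Figure D3:**
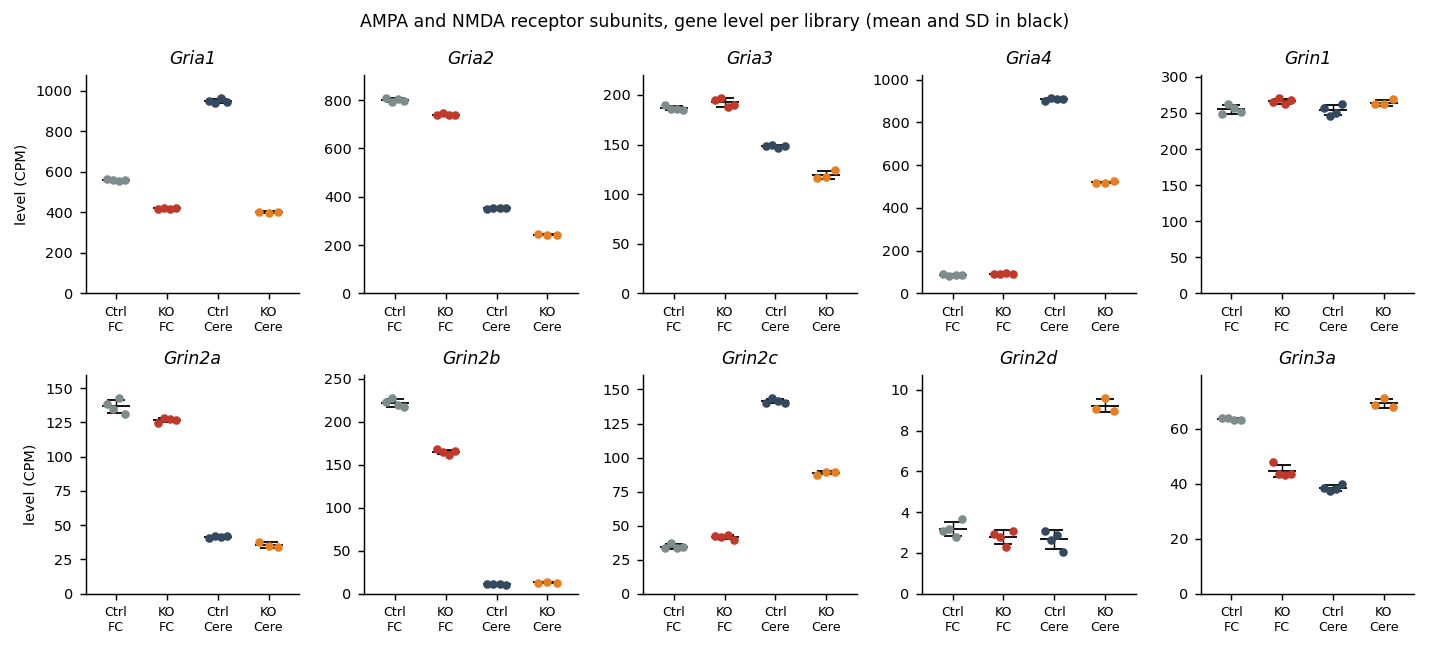
Each dot is the gene level of a library in CPM (vertical axes start at 0 and differ between panels) for the 4 groups, with the mean and SD in black (n = 4, and 3 in Upf3b-KO Cere). Within-group scatter is small beside most gaps between groups, and the 4 groups of Grin1 sit at like levels.

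Grin1, whose product is obligatory for NMDA receptors, did not pass the test in either region. It was at 249 to 263 CPM in Ctrl FC and 263 to 271 in Upf3b-KO FC (log2 fold change −0.01, SE 0.02, adjusted p = 0.597), and at 246 to 262 in Ctrl Cere and 262 to 269 in Upf3b-KO Cere (0.0092, SE 0.02, adjusted p = 0.730). CPM is not corrected for library composition whereas the fold change is, so small CPM gaps and fold changes can differ in sign.

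The GluN2 subunits set the kinetics of NMDA receptors, and in general Grin2b is known to be prominent early in life, Grin2a in the mature forebrain, Grin2c in cerebellar granule cells and Grin2d in interneurons and deeper brain areas. Grin2b was at 223, 227, 220 and 217 CPM in Ctrl FC and 168, 164, 161 and 166 in Upf3b-KO FC, with no overlap (log2 fold change −0.50, SE 0.02, adjusted p = 6.22e-15). In Cere it was at 9.80 to 11.2 CPM in Ctrl and 12.5 to 13.9 in Upf3b-KO (0.23, SE 0.08, adjusted p = 0.0187). Without Upf3b-KO Cere library 3 the adjusted p of the latter was 0.0935, and without Ctrl Cere library 4 it was 0.0615. Grin2a fell in both regions, by 0.18 in FC and by 0.28 in Cere on the log2 scale (adjusted p = 2.54e-06 and 1.19e-05).

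Grin2c was at 33.3 to 37.4 CPM in Ctrl FC and 39.5 to 43.4 in Upf3b-KO FC (log2 fold change 0.19, SE 0.04, adjusted p = 0.000763). In Cere it was at 140, 144, 141 and 140 CPM in Ctrl and 87.5, 89.0 and 89.7 in Upf3b-KO (−0.72, SE 0.02, adjusted p = 5.04e-15). The direction of Grin2c was thus opposite in the 2 regions. Grin2d gave 3.10, 2.62, 2.88 and 2.05 CPM in Ctrl Cere and 9.09, 9.59 and 8.98 in Upf3b-KO Cere (1.73, SE 0.13, adjusted p = 6.21e-10). All 3 knockout libraries lay above all controls, whereas in FC the groups overlapped at 2.80 to 3.66 CPM in Ctrl and 2.31 to 3.07 in Upf3b-KO (−0.26, adjusted p = 0.143). The lowest count of Grin2d in a library was 56.6, and its coefficient of variation was 17.1% in Ctrl Cere and 3.53% in Upf3b-KO Cere.

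Grin3a, which encodes a glycine-binding subunit that lowers calcium entry through the receptor, was at 63.9, 64.0, 63.4 and 63.0 CPM in Ctrl FC and 48.1, 43.6, 43.3 and 43.7 in Upf3b-KO FC. The cerebellar values were 38.6, 37.2, 38.3 and 39.9 CPM in Ctrl and 68.8, 71.1 and 67.9 in Upf3b-KO. It was therefore lower in every knockout library of FC and higher in every knockout library of Cere. The log2 fold changes were −0.58 (SE 0.04, adjusted p = 7.03e-12) and 0.80 (SE 0.04, adjusted p = 3.41e-13).

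Whether the effect of the knockout differed between the regions was tested as an interaction over the 15 libraries. It passed in 8 of 10 members, against 48% of 19831 genes, with 3 members (24.2% of all genes) shifted upwards in Cere relative to FC and 5 (23.8%) downwards. Over 2-fold differences were found in Grin2d (1.98 on the log2 scale, SE 0.19, adjusted p = 2.83e-09) and Grin3a (1.37, SE 0.05, adjusted p = 7.08e-18), and in 9.4% of all genes. The interaction was negative for all 4 AMPA genes, of which Gria1 and Gria2 fell in both regions and Gria3 and Gria4 passed the test only in Cere, with values of −0.81 for Gria1, −0.40 for Gria2, −0.34 for Gria3 and −0.86 for Gria4. Grin2b (0.72) and Grin2c (−0.93) also passed. Grin1 (0.01, adjusted p = 0.782) and Grin2a (−0.11, adjusted p = 0.0570) did not.

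Markers of other cell types moved with genotype in the same libraries, so they are given beside these results. In FC all 6 choroid plexus markers rose, with a summed level of 20.8 to 22.1 CPM in Ctrl and 2156 to 2209 in Upf3b-KO, and all 8 striatal neuron markers rose, from 162 to 174 CPM in Ctrl to 782 to 795. In Cere the sum of the 6 choroid plexus markers was 25.0 to 28.8 CPM in Ctrl and 1369 to 1391 in Upf3b-KO. Cerebellar granule cell markers fell in Cere, 6 of 6, from 3957 to 3993 CPM in Ctrl to 2168 to 2175 in Upf3b-KO, and so did 5 of 5 Purkinje cell markers, from 10514 to 10655 to 4176 to 4191. Rises there included 6 of 6 markers of brainstem and deep nucleus neurons, from 75.0 to 77.8 CPM to 503 to 516, and 5 of 5 oligodendrocyte markers, from 5715 to 5807 to 13688 to 13786. No list summed to 0 in any group, but single markers had a mean of 0, namely Hoxb5 and Hoxa5 in Ctrl FC, Slc6a5 and Hoxa5 in Upf3b-KO FC and Fezf2 in Upf3b-KO Cere. Their part in the changes of the receptor genes was not tested.

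**Figure D4:**
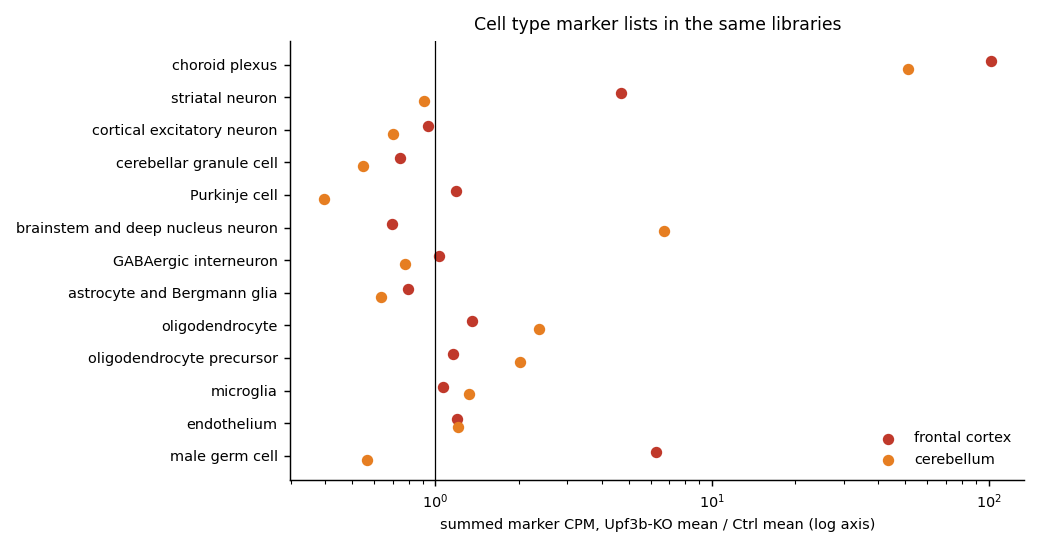
Each dot is the ratio of the mean summed CPM of a marker list in Upf3b-KO to that in Ctrl (log axis), in frontal cortex and in cerebellum. Choroid plexus markers stand at 102 and 51.0, and Purkinje and granule cell markers lie at 0.395 and 0.547 in cerebellum.

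For cortical excitatory neurons, interneurons, astrocytes with Bergmann glia, oligodendrocyte precursors, microglia and endothelium, the summed level in Upf3b-KO was 0.794 to 1.20 times that in Ctrl in FC and 0.637 to 2.02 times in Cere. All 3 oligodendrocyte precursor markers rose in Cere, to a sum of 2.02 times. The astrocyte and Bergmann glia sum, 0.637 times in Cere, covers falls of 5 genes, in which Slc1a3 fell by 1.14 and Gdf10 fell by 1.48 on the log2 scale, and a rise of Gfap by 0.41. The cortical excitatory sum, 0.944 times in FC, covers falls of Slc17a7, Neurod6, Tbr1 and Fezf2, the last from a mean of 33.2 to 16.8 CPM, and rises of Cux2 and Rorb. All 5 oligodendrocyte markers rose in FC as well, to a sum of 1.36 times, and the brainstem and deep nucleus list stood at 0.695 times there, with 2 of 3 tested genes lower. The granule and Purkinje cell lists stood at 0.746 and 1.19 times in FC. The granule sum there was mostly Etv1, which fell from a mean of 153 to 108 CPM, while Zic1 rose from 3.15 to 4.65. Of 4 granule genes tested in FC, 2 fell and 1 rose. The Purkinje sum there was mostly Itpr1 (mean 426 in Ctrl and 537 in Upf3b-KO) and Calb1 (224 and 232). The interneuron sum, 0.773 times in Cere, covers opposite moves, since Gad1, Gad2 and Pvalb fell there while Lamp5 rose from a mean of 0.507 to 123 CPM, Sst from 0.971 to 38.2 and Vip from 0.0465 to 4.15. The 6 male germ cell genes stood at 6.26 times in FC. Their sum stood at 0.564 times in Cere, where Sycp1 fell from a mean of 28.4 to 9.53 CPM, but Prm1, Prm2 and Tnp1 rose, by 3.09 to 3.94 on the log2 scale. The striatal list stood at 0.908 times in Cere, where 5 of its 8 genes rose and 1 fell. The labelled tissues carried their own markers in Ctrl. Cortical excitatory neuron markers summed to 1673 to 1738 CPM in Ctrl FC against 525 to 545 in Ctrl Cere, and granule cell markers to 181 to 187 in Ctrl FC. The granule cell gene Gabra6 had a mean of 0.0753 CPM in Ctrl FC and 747 in Ctrl Cere.

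Transcripts of the members were then compared. In FC 39 member transcripts passed the filter, and 11 differed at an adjusted p under 0.05, of which 10 were lower (7.68% of the 42318 transcripts tested) and 1 was higher (8.67%). In both directions together 16.4% of all transcripts passed. A single member transcript was called over 2-fold, as were 3.22% of all. In Cere 43 member transcripts were tested and 23 passed, 14 lower and 9 higher, where 22.6% of 44388 passed, 10.3% lower and 12.3% higher. Calls over 2-fold were 7, against 4.76% of all transcripts. The 7 include 3 Grin1 transcripts with no counts, after rounding, in any Ctrl library, and these also count among the 23. They passed the filter on low counts only through Upf3b-KO Cere, so they are no evidence of an excess of calls. With the shallow library included, the 23 became 11 and the 7 became 2. The 7 became 3 without Upf3b-KO Cere library 2 or 4 and 4 without library 3. Usage, the level of a transcript relative to the other transcripts of its gene, was tested with edgeR's diffSpliceDGE. It passed for 2 of 38 member transcripts in FC (0.86% of all) and 5 of 43 in Cere (1.25% of all). The 5 include the same 3 Grin1 transcripts, which are no evidence of an excess here either. The 2 left are flop transcripts of Gria1 and Gria4.

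Gria1 was expressed almost wholly from a flip transcript, Gria1-201, and a flop transcript, Gria1-202. In FC both fell, flop by 0.66 (adjusted p = 2.02e-05) and flip by 0.27 (adjusted p = 0.00324) on the log2 scale, and the flip share was 41.3%, 42.4%, 44.6% and 44.6% in Ctrl and 48.7%, 53.7%, 49.5% and 47.4% in Upf3b-KO. In Cere flip fell from 899 ± 7.8 CPM (SD, n = 4) to 349 ± 5.4 (n = 3), by 1.37 on the log2 scale (adjusted p = 1.77e-08), while flop was at 50.8 ± 2.9 CPM in Ctrl and 51.4 ± 3.3 in Upf3b-KO. The flip share was 94.4% to 95.0% in Ctrl Cere and 86.6% to 88.1% in Upf3b-KO Cere, with flop usage up by 1.26 on the log2 scale (adjusted p = 3.60e-10). The knockout libraries thus lay above the controls in FC and below them in Cere.

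Gria4 showed the same exon pattern in Cere. Its flip transcript Gria4-202 fell from 620 CPM to 316 CPM on average (log2 fold change −0.97, SE 0.02, adjusted p = 2.71e-07), while flop Gria4-204 was at 99.0 ± 3.1 CPM in Ctrl and 91.1 ± 6.1 in Upf3b-KO. The flip share was 85.7% to 86.8% in Ctrl Cere and 75.8% to 78.8% in Upf3b-KO Cere, and usage of the flop transcript rose by 0.69 (adjusted p = 1.67e-06, but 0.0544 with no filter on low counts and 0.125 with the shallow library included). In FC the share varied widely, with 28.3% to 56.6% across the Ctrl libraries on 1459 to 1618 counts. The truncated transcript Gria4-203, which ends before the exon pair, fell in Cere by 0.77 on the log2 scale (adjusted p = 2.0e-06).

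Gria2 and Gria3 had lower flip shares in knockout cerebellum as well. For Gria2 the share was 63.2% to 67.5% in Ctrl Cere and 57.5% to 58.8% in Upf3b-KO Cere, and for Gria3 87.1% to 93.0% and 80.3% to 83.1%. The Gria2 flip and flop transcripts also differ in their last exon, so that share covers both features. The same holds for Gria3, whose flip Gria3-201 has 16 exons and whose flop Gria3-202 and Gria3-209 have 17 and 15. For Gria4, flip Gria4-202 has 17 exons and flop Gria4-204 has 16, with different starts, so its share is also mixed. None of the usage tests passed for these genes. In Cere the flip transcripts Gria2-202 (log2 fold change −0.73, adjusted p = 4.44e-05) and Gria3-201 (−0.61, adjusted p = 6.53e-05) and the flop transcript Gria2-201 (−0.28, adjusted p = 0.00143) all fell. With the shallow library included, Gria3-201 (adjusted p = 0.0528) and Gria2-201 (0.0869) no longer passed.

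The shares of 9 such exons or ends were compared in 27 two-sided exact permutation tests. With 4 libraries against 4 the smallest p is 0.0286, and with 4 against 3 it is 0.0571, and no share passed after adjustment (smallest adjusted p = 0.0857). The Gria1 flip share in FC and the Grin1 N1 share in FC were among those at the former limit, and in Cere the flip shares of all 4 Gria genes, the Gria3 double-exon share and the Grin1 N1 and C2 shares were at the latter.

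**Figure D5:**
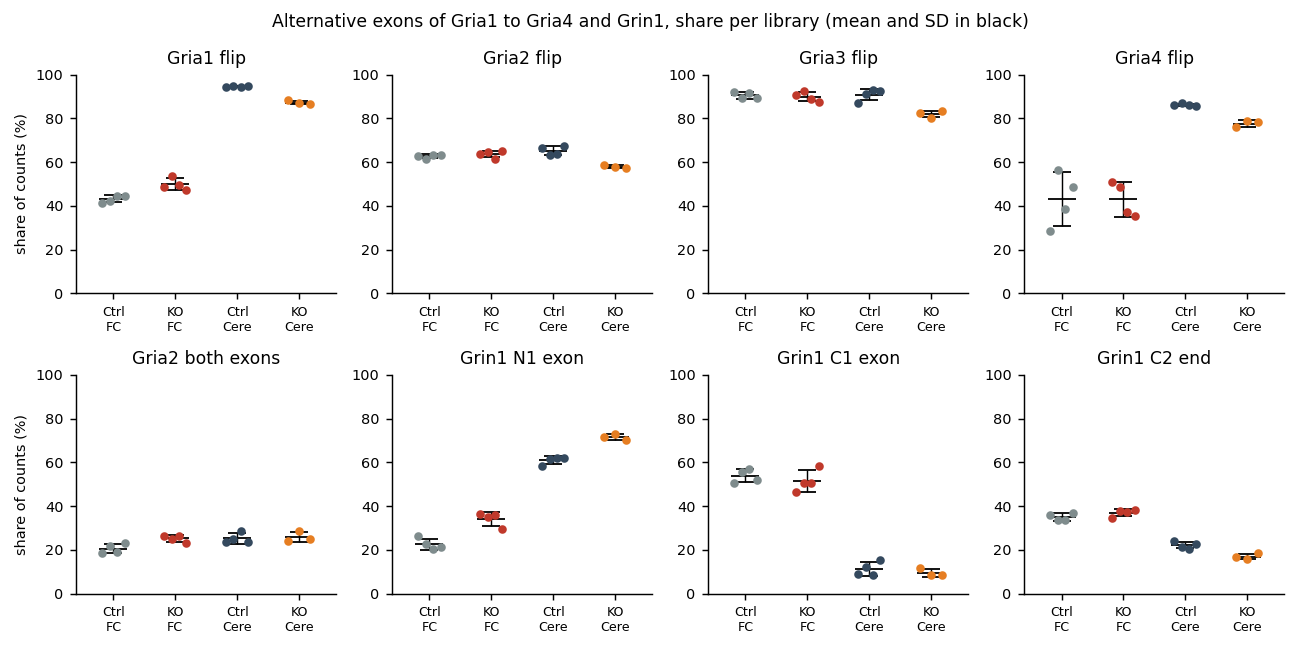
Each dot is the share (percent of counts, vertical axis from 0 to 100) of a library for a named exon, with the mean and SD in black (n = 4, and 3 in Upf3b-KO Cere). In cerebellum the flip share is lower in Upf3b-KO for all 4 Gria genes, and the Grin1 N1 share is higher in Upf3b-KO in both regions.

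Transcripts with features of NMD targets were present among the AMPA genes. Gria2-203 and Gria3-206 contain both flop and flip, which shifts the reading frame, and have a stop codon 477 and 327 bases before the last exon junction. Gria2-203 was at 149 ± 14 CPM in Ctrl FC and 169 ± 9.7 in Upf3b-KO FC and did not pass the test there. It fell with the gene in Cere, from 68.2 ± 7.8 to 47.6 ± 6.1 CPM (log2 fold change −0.52, SE 0.11, adjusted p = 0.0157). The adjusted p was 0.0614 without Upf3b-KO Cere library 2, 0.0654 without library 4 and 0.118 with the shallow library included. Its share of flop, flip and double-exon counts was 18.6% to 22.9% in Ctrl FC and 23.2% to 26.4% in Upf3b-KO FC (exact permutation p = 0.0286, adjusted p = 0.0857), and 23.5% to 28.8% and 23.9% to 28.4% in Cere. Gria3-206 was at 4.73 ± 3.8 CPM in Ctrl Cere and 15.6 ± 6.6 in Upf3b-KO Cere, and at 10.4 ± 4.2 in Ctrl FC and 6.61 ± 4.7 in Upf3b-KO FC, and passed in neither region (adjusted p = 0.352 in Cere and 0.581 in FC). Its share of flop, flip and double-exon counts was 0% to 6.27% in Ctrl Cere and 7.77% to 18.6% in Upf3b-KO Cere, without overlap (exact permutation p = 0.0571, the smallest the design allows, adjusted p = 0.0908), and 2.99% to 8.80% and 0.477% to 6.50% in FC. Among other Gria transcripts, the intron-retaining Gria2-204 fell by 0.52 in FC and by 1.22 in Cere, the latter a call. Gria3-208 fell by 0.87 in Cere (adjusted p = 0.0264). Its adjusted p was 0.0556 to 0.0886 without Upf3b-KO library 2, 3 or 4 or Ctrl library 2 or 4, and 0.0872 with the shallow library included. Gria2-206, Gria3-202 and Gria3-209 did not pass in either region.

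The summed level of Grin1 did not pass the test, but several of its isoforms did. The leading transcript with N1, Grin1-207 (N1, no C1, C2′ end), rose in FC from 64.9, 59.2, 51.4 and 53.0 CPM to 95.5, 94.2, 93.9 and 78.4 CPM (log2 fold change 0.60, SE 0.09, adjusted p = 0.00274). The transcript that differs from it only by lacking N1, Grin1-205, fell from 30.1, 31.3, 28.3 and 38.8 CPM to 19.1, 10.9, 10.2 and 10.2 CPM (−1.41, SE 0.22, adjusted p = 0.00343). The call of Grin1-205 over 2-fold was lost, at an adjusted p above 0.01, without Upf3b-KO FC library 2, 3 or 4 or Ctrl FC library 1, 2 or 4. These were the 2 usage changes in FC (adjusted p = 0.00042 and 2.88e-07), and that of Grin1-207 was lost with no filter on low counts (adjusted p = 0.182). N1 was present in 20.2% to 26.2% of full-length Grin1 counts in Ctrl FC and 29.5% to 36.3% in Upf3b-KO FC. In Cere the N1 share was 58.2% to 62.2% in Ctrl and 70.1% to 72.9% in Upf3b-KO, and Grin1-207 rose by 0.26 on the log2 scale (adjusted p = 0.00101).

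The other N1 transcripts were rare. Grin1-203, Grin1-204 and Grin1-208 had no counts, after rounding, in any Ctrl library and held 1.16%, 0.329% and 0.458% of the gene's counts in Upf3b-KO Cere. At a floor of 3 counts per control library, Grin1-203 was at least 28.4-fold higher in Upf3b-KO Cere (1.96 to 3.97 CPM), Grin1-204 at least 8.04-fold (0.446 to 1.10 CPM) and Grin1-208 at least 11.2-fold (0.735 to 1.67 CPM). These 3 transcripts passed the filter on low counts only through Upf3b-KO Cere, where they were high, so their tests add nothing to these counts. Their calls also rest on small counts. None passed at an adjusted p under 0.05 with the replicate number as a block (adjusted p = 0.0664, 0.140 and 0.113). Without N1, the C2-ended Grin1-202 fell in Cere by 0.44 (adjusted p = 0.0110, but 0.0774 with the shallow library included). Grin1-201 and Grin1-206, both without N1 and with C1, did not pass in either region. The C1 share differed chiefly by region, at 50.8% to 57.1% in Ctrl FC and 8.76% to 15.3% in Ctrl Cere, and the genotypes overlapped in both. The C2 share was 20.6% to 24.0% in Ctrl Cere and 15.8% to 18.4% in Upf3b-KO Cere.

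Among GluN2 and GluN3 transcripts no usage test passed. Grin2b-201 and Grin2b-202, which share the same coding length, fell in FC by 0.63 (adjusted p = 3.68e-06) and by 0.41 (adjusted p = 5.74e-05) on the log2 scale. Grin2a-206 held at least 98.1% of the gene's counts in every group mean and fell in both regions, by 0.17 and by 0.22. In Cere both Grin2c transcripts fell, Grin2c-201 by 0.64 and Grin2c-202 by 0.78, and both Grin2d transcripts rose, Grin2d-201 by 1.82 and Grin2d-203 by 1.74. Grin3a-201 fell by 0.62 in FC and rose by 0.71 in Cere, and Grin3a-202 rose by 1.58 in Cere (adjusted p = 0.0253, but 0.0601 to 0.0947 without Upf3b-KO library 2 or 4 or Ctrl library 2 or 3). Grin2b-202 passed in Cere at 0.40 (adjusted p = 0.0452, but 0.0859 to 0.151 without Upf3b-KO library 2, 3 or 4 or Ctrl library 1, 3 or 4). With the replicate number as a block, the cerebellar results of Grin2a-206 (adjusted p = 0.0686), Grin2b-202 (0.237), Grin2d-203 (0.0926) and Grin3a-202 (0.0560) no longer passed. With the shallow library included, those of Grin2a-206 (0.28), Grin2b-202 (0.513) and Grin3a-202 (0.0681) did not pass.

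Auxiliary proteins that traffic and gate AMPA receptors were examined as a list of 24 genes. At an adjusted p under 0.05, 4 rose and 11 fell in FC, where 28% of all genes rose and 25.3% fell. In Cere 7 rose and 10 fell, where 33.1% of all genes rose and 31.3% fell (median log2 fold change −0.09 and −0.0076). Named by the size of their adjusted p among genes called, Olfm2, an extracellular olfactomedin, rose in Cere from 10.2 ± 0.25 CPM (SD, n = 4) to 45.5 ± 0.94 (n = 3), by 2.11 on the log2 scale. Cacng5, which encodes an AMPA receptor regulatory protein of the TARP family, fell there by 1.33 and Shisa6, an auxiliary subunit gene, by 1.10.

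Of 13 genes for kainate and delta receptor subunits and their Neto and cerebellin partners, with Grin3b, 6 rose and 6 fell in Cere (33.1% and 31.3% of all genes), and 2 rose and 7 fell among 12 tested in FC (28% and 25.3%). Cbln1, a cerebellin secreted by granule cells, fell in both regions, by 1.16 in FC and by 1.01 in Cere. Cbln2, a cerebellin that was nearly absent from Ctrl Cere at 0.189 ± 0.019 CPM, was at 16.6 ± 0.86 in Upf3b-KO Cere. For NMDA receptor modulators and kinases, 7 of 8 fell in Cere and 1 rose (31.3% and 33.1% of all genes), and 4 of 7 fell and 2 rose in FC (25.3% and 28%). The 3 RNA editing enzyme genes, which include the enzyme that recodes Gria2, gave 2 rises in each region and 1 fall in FC, none over 2-fold.

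The non-member gene with the most similar profile over the 15 libraries is given for 9 members, by Pearson correlation of log2 CPM, as a description, since these points fall into 4 groups of libraries. It was Slc17a7 for Gria2 (r = 0.999), Cnksr2 for Gria3 (0.995) and Lhfpl6 for Gria4 (0.999). Among NMDA genes it was Ppp3r1 for Grin2a (0.999), Lmo4 for Grin2b (0.9995), Icmt for Grin2c (0.998), Nudt4 for Grin2d (0.982), Atp6v1b2 for Grin3a (0.993) and Gm6505 for Grin1 (0.910). Gm6505 was low, with means of 0.843 CPM in Ctrl FC, 2.71 in Upf3b-KO FC, 0.900 in Ctrl Cere and 2.95 in Upf3b-KO Cere. In the same order Grin1 had means of 255, 266, 254 and 264 CPM and passed in neither region.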

How the data were processed

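Total RNA was depleted of ribosomal RNA, converted with a SMART-Seq kit and sequenced as read pairs. Per the labels, the authors' tools included STAR 2.5.2b and RSEM, with genome build GRCm39. The deposited values are expected counts, RSEM's estimated counts per Ensembl transcript, not scaled for depth or length. RSEM divides reads shared by isoforms among them by a model, so a transcript value depends on its isoforms, and an isoform share is an estimate. Use of strand was not given in the sources used here, so antisense or overlapping genes cannot be told apart.

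Transcripts (141102 of 142435) were matched by identifier to GENCODE vM39, a later release than the study's. The 1333 unmatched transcripts, which held under 1% of counts, stayed in library totals for CPM only. Exon sequences were read from GRCm39, and flop and flip were assigned by order in the gene. Gene values are sums over transcripts. Counts were rounded and fitted in R 4.3.3 with edgeR 4.0.16 (limma 3.58.1; filterByExpr with minimum count 10 and minimum total 15, TMM scaling, quasi-likelihood F test, diffSpliceDGE for usage), over all features with Benjamini-Hochberg adjustment. A call needed an adjusted p under 0.01 and a fold over 2. In simulated data the gene and transcript fits recovered the known changes, whereas the usage test missed some of them and made some false calls. The simulation used large changes in well-counted features and, at every level, a spread like that of the gene fits. That spread, as a biological coefficient of variation, was 0.0399 for genes in FC. It was 0.495 for transcripts in FC and 0.528 in Cere, so the simulation did not test the transcript or usage fits at their own spread.

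Named were all 10 genes, transcripts with at least 5% of their gene's counts in a group mean, called transcripts, and at most 3 called genes per list and region, apart from some results that are not reported here. Members and lists were chosen with earlier results of these data known. Replicate numbers come from the labels, and nothing there says that a number marks an animal. Same-numbered libraries deviated together with correlations of −0.0987 to 0.153. Alternatives were DESeq2 1.42.0, other scaling, filters and library sets, the replicate block, and leaving out each library. Floors are 3 counts of a library total and cover counting error only.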

Additional observations from a re-analysis of the deposited data

Results flagged for a closer look

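The knockout effect differed between the regions in 8 genes by the interaction test. Cerebellum minus frontal cortex, on the log2 scale, was −0.81 for Gria1, −0.40 for Gria2, −0.34 for Gria3 and −0.86 for Gria4. It was 0.72 for Grin2b, −0.93 for Grin2c, 1.98 for Grin2d and 1.37 for Grin3a. The Gria1 flip share moved by 6.58 percentage points in frontal cortex and by −7.49 in cerebellum, with every Upf3b-KO library above the controls in the former and below them in the latter. The difference between these 2 shifts was not tested.

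Single libraries stood apart from the other 3 of their group in 4 of 57 checks of gene levels and exon shares, and chance gives about 1 in 20. They were Grin3a in Upf3b-KO FC (48.1 CPM against 43.3 to 43.7), the Grin1 C2 share in Upf3b-KO FC (34.7% against 37.5% to 38.0%), Grin2a in Ctrl Cere (40.9 CPM against 41.7 to 41.8) and the Grin1 N1 share in Ctrl Cere (58.2% against 61.6% to 62.2%).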

How the results depend on the processing

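Gene calls over 2-fold (0 members in FC, 2 in Cere, 5 between regions, 2 in the interaction) had the same counts under every alternative run, and counts at an adjusted p under 0.05 stayed within 1.5 times. With each library left out in turn, the latter were 6 in FC, 8 to 9 in Cere, 8 to 9 between regions and 8 to 9 in the interaction. Transcript calls depended more on the setting. With the replicate block, calls over 2-fold went from 1 to 0 in FC and from 7 to 2 in Cere, and those at an adjusted p under 0.05 from 23 to 15 in Cere. The replicate numbers did not pair the libraries by their correlations. With the shallow library included, Cere gave 2 and 11. Leaving out single libraries gave 0 to 1 calls in FC and 3 to 6 in Cere, and 11 to 12 and 19 to 22 at an adjusted p under 0.05. Usage gave 1 in FC with no filter, and in Cere 3 with a stricter filter (fewer transcripts tested) and 1 with the shallow library, with 2 and 5 to 6 when libraries were left out. The cause of the other shifts was not tested. Signs turned only for genes near 0 that did not pass. Gria4 in FC ranged from −0.03 to 0.0095 without single libraries, Grin1 in Cere from −0.0069 to 0.023 (−0.0047 with 15 libraries in one fit) and the Grin1 interaction from −0.0031 to 0.039. Of the other values for single genes and transcripts, 1159 kept direction and side of the threshold, 39 lost and 18 gained it. Depth limits Grin2d and the rare Grin1 transcripts, which rest on few counts.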

Other observations

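The Upf3b-KO Cere library left out for depth held 26 counts of Gria1, 12 of Gria2, 6 of Gria3, 47 of Gria4, 24.0 of Grin1, 1.15 of Grin2a, 4 of Grin2c and 3 of Grin3a, and 0 of Grin2b and Grin2d. With 64981 counts in all, 0 counts allow a level of up to 46.2 CPM, and all members but Gria1, Gria2, Gria3, Gria4, Grin1 and Grin2c were at or under that limit.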
